A study of Mus musculus with 4 samples.

Results

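Chemokine ligands were examined in RNA sequencing libraries of mouse sciatic nerve: Ccl2, Ccl6, Ccl7, Ccl8, Ccl9, Ccl11, Ccl12, Ccl24, Cxcl12 and Cx3cl1. These 10 genes were chosen by symbol from the 24062 gene symbols of the count table, and all 10 reached 1 CPM (read counts scaled to a common library size) in some library, as did 14700 genes altogether. Each of 4 genotypes was represented by 1 library, from C57BL/6 mice aged 4 months. WT mice are labelled C57BL/6 with no further allele. PKO mice are labelled P2RY14-/-, a null genotype for a receptor of UDP-sugars. NF1 mice are labelled Nf1fl/fl with Dhh Cre, which deletes the RAS GTPase-activating protein neurofibromin from cells of the Desert hedgehog lineage, chiefly Schwann cells, so that other cells of the nerve keep Nf1. PKO-NF1 mice carry the P2RY14-/- genotype together with floxed Nf1 (spelled Nf1fl/f) and Dhh Cre. The labels give no Cre or floxed allele for WT or PKO, and they give neither the number nor the sex of the animals in a library. The NF1 library is labelled a repeat.

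Chemokines are small secreted proteins that direct the movement of leukocytes through G protein-coupled receptors, and they are classed by the spacing of their first cysteines into CC, CXC and CX3C ligands. CC ligands draw monocytes, macrophages, eosinophils and lymphocytes into tissue. In peripheral nerve they are best known from injury, when Schwann cells, fibroblasts and resident macrophages release Ccl2 and blood monocytes enter. Cxcl12 retains CXCR4-bearing cells and guides growing cells and axons, and Cx3cl1 is a membrane-bound ligand of macrophages and microglia.

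Total counts per library were between 14111201 and 20362685. A gene with a count of 0 could have had up to 3 counts, or 0.152 to 0.183 CPM. With 1 library per genotype no difference has a replicate check. A ratio here sets 2 libraries side by side, and the 95% interval beside it holds counting error alone. P2ry14 was at 37.6 CPM in WT, 65.3 in NF1, 10.9 in PKO and 10.6 in PKO-NF1, so that both libraries labelled P2RY14-/- were lower but not at 0. Nf1 was at 72.8 CPM in WT, 63.4 in NF1, 41.0 in PKO and 20.5 in PKO-NF1, so gene totals set the library labelled NF1 little apart from WT; a total over all exons and cells is a weak check of a deletion in a single lineage. Myelinating Schwann cell genes, among them Mbp and Pmp22, were all detected in every library. Genes of skeletal muscle made up 6.84% of the NF1 counts, against 0.015% to 0.141% elsewhere, and leaving these genes out changed no count of ligands given here. The libraries also differed by transcript length. In the shortest decile of genes, with transcripts of at most 1251 bases, the median log2 ratio was 1.13 in PKO vs WT, 0.60 in PKO-NF1 vs NF1, -0.02 in PKO-NF1 vs PKO and 0.58 in NF1 vs WT. Ccl2, Ccl7, Ccl8, Ccl11 and Ccl12 belong to that decile. Ratios are therefore given with TMM scaling and also with a smooth trend over transcript length and GC content subtracted, called below the trend-subtracted value. In PKO-NF1 vs PKO the log2 trend subtracted from those ligands was 0.46 (Ccl8) to 0.85 (Ccl11), although the decile median was -0.02. The median by length alone thus does not give that shift, and the parts of length and GC content were not separated.

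Chemokine ligand RNA was more abundant in both libraries labelled P2RY14-/-, called P2ry14-null below. Summed over the 10 genes it was 590 CPM in WT, 694 in NF1, 1271 in PKO and 1440 in PKO-NF1, or 0.0708%, 0.0718%, 0.111% and 0.133% of all counts. These sums are not trend-subtracted. Ccl11, their largest part, had trend-subtracted log2 ratios of -0.11 in PKO vs WT and 0.22 in PKO-NF1 vs NF1. The trend-subtracted medians over the 10 genes were 0.76 and 0.48. In bulk nerve RNA more cells of a type and more RNA per cell cannot be told apart. Per kilobase of longest protein-coding transcript and averaged over the 4 libraries, Ccl11 had the highest level, at 320 CPM per kilobase, followed by Ccl6 at 131 and Ccl9 at 62.0. Ccl7 (32.3), Cxcl12 (30.8), Ccl2 (27.7), Ccl8 (25.8) and Ccl24 (20.4) formed a middle range, and Ccl12 (10.6) and Cx3cl1 (3.27) had the lowest means. In WT alone Ccl12 (1.98) and Ccl8 (3.81) were below Cx3cl1 (4.97) on this scale. The Cxcl12 value rests on a long transcript of 5627 bases and would be larger for its shorter forms. In every library Ccl11 contributed the largest share of the ligands' summed CPM, from 27.1% in PKO to 42.3% in NF1. In the plot of levels by library, the ligands fall into several different shapes over the 4 genotypes.

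**Figure D1:**
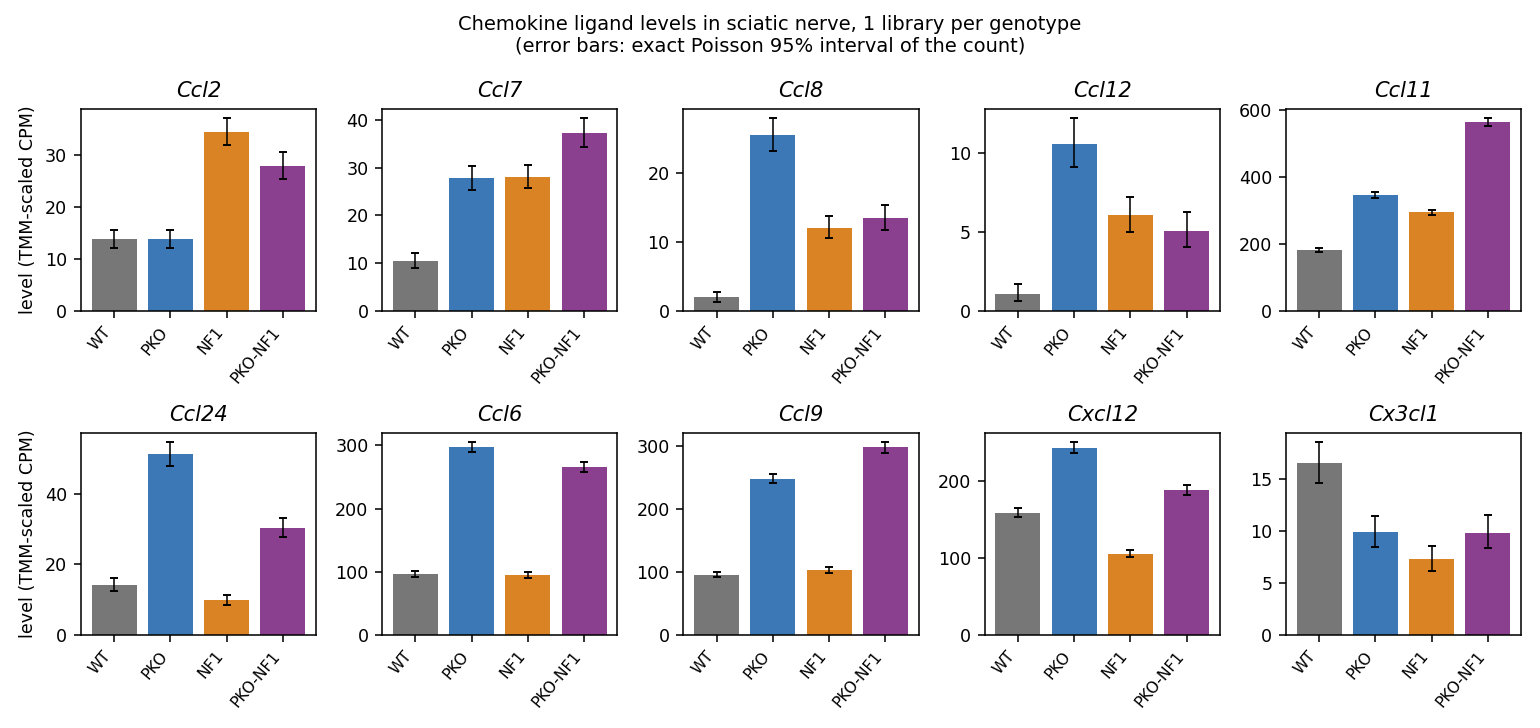
Level of each ligand in TMM-scaled CPM (y axis, from 0, with its own scale per gene) in the WT, PKO, NF1 and PKO-NF1 libraries (x axis); bars are single libraries and error bars are exact Poisson 95% intervals of the count. Ccl6, Ccl9 and Ccl24 stand highest in PKO and PKO-NF1, Ccl2 in NF1 and PKO-NF1, and Ccl8 and Ccl12 in PKO, with Cx3cl1 highest in WT.

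Ccl2 and Ccl7 are ligands of CCR2, the receptor that brings monocytes out of the marrow and into tissue. They are neighbours on chromosome 11 of GRCm38 (mm10), Ccl2 (ENSMUSG00000035385) at 82035571 to 82037453 and Ccl7 (ENSMUSG00000035373) at 82045712 to 82047525, both on the plus strand and 8.3 kb apart. Ccl2 overlaps the predicted gene Gm17268 on the opposite strand, as Ccl6 does E230016K23Rik, and the share of reads from either side is uncertain. Ccl2 was at 13.8 (WT), 13.8 (PKO), 34.5 (NF1) and 27.9 CPM (PKO-NF1). Both Nf1-mutant libraries were thus above both others, and WT and PKO did not differ beyond counting error. Ccl2 was 2.50-fold above WT in NF1 (95% interval 2.15 to 2.91) and 2.03-fold above PKO in PKO-NF1 (1.73 to 2.38). Trend-subtracted, these log2 ratios of 1.32 and 1.02 were 0.28 and 0.25, under 2-fold. The P2ry14 comparisons of Ccl2 were lower under that setting as well, going from log2 ratios of -0.0035 in PKO vs WT and -0.30 in PKO-NF1 vs NF1 to -1.22 and -1.08.

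Ccl7 was at 10.5 (WT), 27.7 (PKO), 28.0 (NF1) and 37.3 CPM (PKO-NF1). WT was the lowest library, PKO and NF1 did not differ beyond counting error, and PKO-NF1 was the highest. Relative to WT, Ccl7 was 2.67-fold higher in NF1 (2.25 to 3.18) and 2.64-fold higher in PKO (2.22 to 3.15). From PKO to PKO-NF1 it was 1.34-fold higher (1.19 to 1.52), so its Nf1 ratio was smaller on the P2ry14-null background. Trend-subtracted log2 ratios of Ccl7 were 0.18 in PKO vs WT, -0.37 in PKO-NF1 vs PKO and 0.34 in NF1 vs WT. With libraries scaled by total counts alone, the PKO vs WT ratio was 1.92.

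Ccl8 and Ccl12 had the widest range over the libraries. Ccl12 is a rodent CCR2 ligand closely related to Ccl2, and mouse Ccl8 acts through CCR8 on type 2 lymphocytes. Ccl8 was at 1.95 (WT, 33 counts), 25.4 (PKO), 12.0 (NF1) and 13.4 CPM (PKO-NF1). Its highest library was thus PKO, its lowest WT, and NF1 and PKO-NF1 lay between them without differing beyond counting error. Ccl8 was 13.1-fold above WT in PKO (9.16 to 19.2) and 6.18-fold above WT in NF1 (4.28 to 9.18), while PKO-NF1 was 1.90-fold lower than PKO (1.61 to 2.25). Ccl12 was at 1.06 (WT, 18 counts), 10.6 (PKO), 6.04 (NF1) and 5.06 CPM (PKO-NF1). The order was again PKO first and WT last, with NF1 and PKO-NF1 not apart beyond counting error. Ccl12 was 9.95-fold above WT in PKO (6.13 to 17.2), 5.69-fold above WT in NF1 (3.45 to 9.92) and 2.09-fold below PKO in PKO-NF1 (1.60 to 2.74). The last ratio was 1.98-fold lower with libraries scaled by total counts alone. Trend-subtracted log2 ratios were above 1 in PKO vs WT (2.30 for Ccl8, 1.96 for Ccl12) as well as NF1 vs WT (1.68 and 1.28). They were -1.38 and -1.88 in PKO-NF1 vs PKO.

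Ccl12 (ENSMUSG00000035352, 82101845 to 82103400) and Ccl8 (ENSMUSG00000009185, 82115185 to 82116799) are adjacent genes on the plus strand of chromosome 11, 11.8 kb apart. Their 250 bases before the RefSeq transcription start (GRCm38.p6) are shown because both genes had the same order of libraries at the top and bottom; capitals mark TATAAA on the gene's strand and GGAAGT, the ETS-family core bound by the myeloid factor PU.1, or its reverse complement.
Ccl8, chr11:82114935-82115184, plus strand: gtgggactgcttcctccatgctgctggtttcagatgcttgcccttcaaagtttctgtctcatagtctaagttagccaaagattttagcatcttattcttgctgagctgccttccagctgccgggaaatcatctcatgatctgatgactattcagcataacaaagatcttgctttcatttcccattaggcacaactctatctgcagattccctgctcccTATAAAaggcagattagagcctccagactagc
Ccl12, chr11:82101595-82101844, plus strand: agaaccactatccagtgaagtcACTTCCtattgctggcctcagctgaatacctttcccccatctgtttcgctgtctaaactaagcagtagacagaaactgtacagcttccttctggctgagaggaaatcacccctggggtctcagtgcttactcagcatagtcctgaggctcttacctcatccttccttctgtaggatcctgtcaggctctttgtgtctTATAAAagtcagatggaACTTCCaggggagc
TATAAA begins 32 bases before the start in Ccl8 and 31 in Ccl12. Of 32851 RefSeq windows of this length, 1.99% hold TATAAA between 20 and 40 bases before the start. In a global alignment 150 of the 250 bases (60.0%) were identical, the most of any pair among the 6 ligands with an entry; the other pairs had 46.0% to 56.4%. GGAAGT or its reverse complement occurs in 19.7% of windows. The 6 entries were Ccl6, Ccl8, Ccl9, Ccl12, Cxcl12 and Cx3cl1, and Ccl2, Ccl7, Ccl11 and Ccl24 were not among the windows used here.

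Ccl6, Ccl9 and Ccl24 were higher in both P2ry14-null libraries. Ccl6 and Ccl9 are CCR1 ligands made by macrophages and other myeloid cells, and Ccl24 (eotaxin-2) is a CCR3 ligand of alternatively activated macrophages that draws eosinophils. Ccl6 was at 96.2 (WT), 297 (PKO), 94.6 (NF1) and 267 CPM (PKO-NF1). Ccl9 was at 95.8 (WT), 249 (PKO), 103 (NF1) and 298 CPM (PKO-NF1). For either gene the P2ry14-null and P2ry14-intact libraries did not overlap, and with TMM scaling the Nf1 ratios were within 1.20-fold. Trend-subtracted, the log2 ratios in NF1 vs WT and then PKO-NF1 vs PKO were -0.72 and -0.81 for Ccl6, and -0.24 and -0.40 for Ccl9. Ccl6 was 3.09-fold above WT in PKO (2.92 to 3.27) and 2.82-fold above NF1 in PKO-NF1 (2.67 to 2.98). Ccl9 was 2.59-fold (2.45 to 2.75) and 2.89-fold (2.74 to 3.05) higher in the same comparisons, which share no library.

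Ccl24 (ENSMUSG00000004814; chromosome 5, 135569937 to 135573049, minus strand) was at 14.2 (WT), 51.2 (PKO), 9.84 (NF1) and 30.4 CPM (PKO-NF1). Again both P2ry14-null libraries were above the other two, and each Nf1-mutant library was below its Nf1-intact partner. Ccl24 was 3.60-fold above WT in PKO (3.12 to 4.16) and 3.09-fold above NF1 in PKO-NF1 (2.61 to 3.66). It was 1.44-fold below WT in NF1 (1.19 to 1.75) and 1.68-fold below PKO in PKO-NF1 (1.51 to 1.88), with trend-subtracted log2 ratios of -0.99 and -1.01. In the P2ry14 comparisons Ccl9 had trend-subtracted log2 ratios of 1.32 in PKO vs WT and 1.33 in PKO-NF1 vs NF1. Ccl24 had 0.97 and 1.12, and Ccl6 had 0.78 and 0.87, which are under 2-fold in both comparisons. Scaled by total counts alone, Ccl9 was 1.89-fold above WT in PKO.

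Ccl9 (ENSMUSG00000019122, 83572919 to 83578636) and Ccl6 (ENSMUSG00000018927, 83587882 to 83593087) are neighbours on the minus strand of chromosome 11, 9.2 kb apart and 1456 kb beyond Ccl8. Of the 45 pairs of ligands, they had the most alike profiles over the 4 libraries, with a root mean square difference of centred log2 levels of 0.16. Their windows before the RefSeq start follow for that reason, with the same motifs in capitals.
Ccl6, chr11:83593088-83593337, minus strand: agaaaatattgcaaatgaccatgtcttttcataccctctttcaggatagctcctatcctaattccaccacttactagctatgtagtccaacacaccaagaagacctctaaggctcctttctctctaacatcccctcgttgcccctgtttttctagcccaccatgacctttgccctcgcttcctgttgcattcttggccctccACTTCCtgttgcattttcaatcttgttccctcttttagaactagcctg
Ccl9, chr11:83578637-83578886, minus strand: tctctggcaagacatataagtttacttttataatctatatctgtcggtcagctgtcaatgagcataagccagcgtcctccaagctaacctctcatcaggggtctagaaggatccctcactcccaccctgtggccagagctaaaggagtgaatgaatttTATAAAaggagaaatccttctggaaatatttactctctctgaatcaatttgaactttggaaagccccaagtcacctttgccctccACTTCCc
In the global alignment of this pair 130 bases (52.0% of the window) were identical, fewer than the 132 (52.8%) of Ccl9 and Cx3cl1. The reverse complement of GGAAGT begins 48 bases before the start in Ccl6 and 7 bases before it in Ccl9. Ccl9 also holds a match to the NF-kB consensus and 1 to TGANTCA (the AP-1 core), found in 7.25% and 6.75% of windows, both strands searched. These matches describe letters only.

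Ccl11 (eotaxin-1; ENSMUSG00000020676; chromosome 11, 82057823 to 82062955, plus strand), which attracts eosinophils through CCR3 and is made by fibroblasts, stood 10.3 kb beyond Ccl7. It was at 182 (WT), 345 (PKO), 294 (NF1) and 563 CPM (PKO-NF1). Every step of that order was larger than counting error, with WT lowest and the double mutant highest. The Nf1 ratio was 1.62 with P2ry14 intact (1.55 to 1.69) and 1.63 on the P2ry14-null background (1.58 to 1.69), and the P2ry14 ratio was 1.90 with Nf1 intact (1.82 to 1.98) and 1.92 in the Nf1 mutants (1.86 to 1.98). No single ratio reached 2-fold. Trend-subtracted log2 ratios of Ccl11 ran from -0.30 (NF1 vs WT) to 0.22 (PKO-NF1 vs NF1), so that 3 of the 4 turned from positive to negative.

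Cxcl12 (ENSMUSG00000061353; chromosome 6, 117168535 to 117181367, plus strand), the CXCR4 ligand made by stromal and endothelial cells, was at 158 (WT), 242 (PKO), 105 (NF1) and 188 CPM (PKO-NF1). Both P2ry14-null libraries were above the others, with NF1 lowest. Cxcl12 was 1.53-fold above WT in PKO (1.46 to 1.61) and 1.79-fold above NF1 in PKO-NF1 (1.69 to 1.89). It was 1.51-fold below WT in NF1 (1.42 to 1.60) and 1.29-fold below PKO in PKO-NF1 (1.23 to 1.35). Trend-subtracted, its log2 ratio was 0.74 in PKO vs WT and 1.18 in PKO-NF1 vs NF1, and the Nf1 ratios were -0.24 and 0.02.

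Cx3cl1 (ENSMUSG00000031778; chromosome 8, 94772009 to 94782427, plus strand), fractalkine, was at 16.5 (WT), 9.84 (PKO), 7.26 (NF1) and 9.82 CPM (PKO-NF1). WT was the highest library, and PKO and PKO-NF1 did not differ beyond counting error. Cx3cl1 was 2.27-fold below WT in NF1 (1.85 to 2.80) and 1.67-fold below WT in PKO (1.38 to 2.03), while PKO-NF1 was 1.35-fold higher than NF1 (1.07 to 1.71). The NF1 vs WT log2 ratio of -1.18 was -0.73 when trend-subtracted. With libraries scaled by total counts alone, Cx3cl1 was 2.30-fold below WT in PKO.

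**Figure D2:**
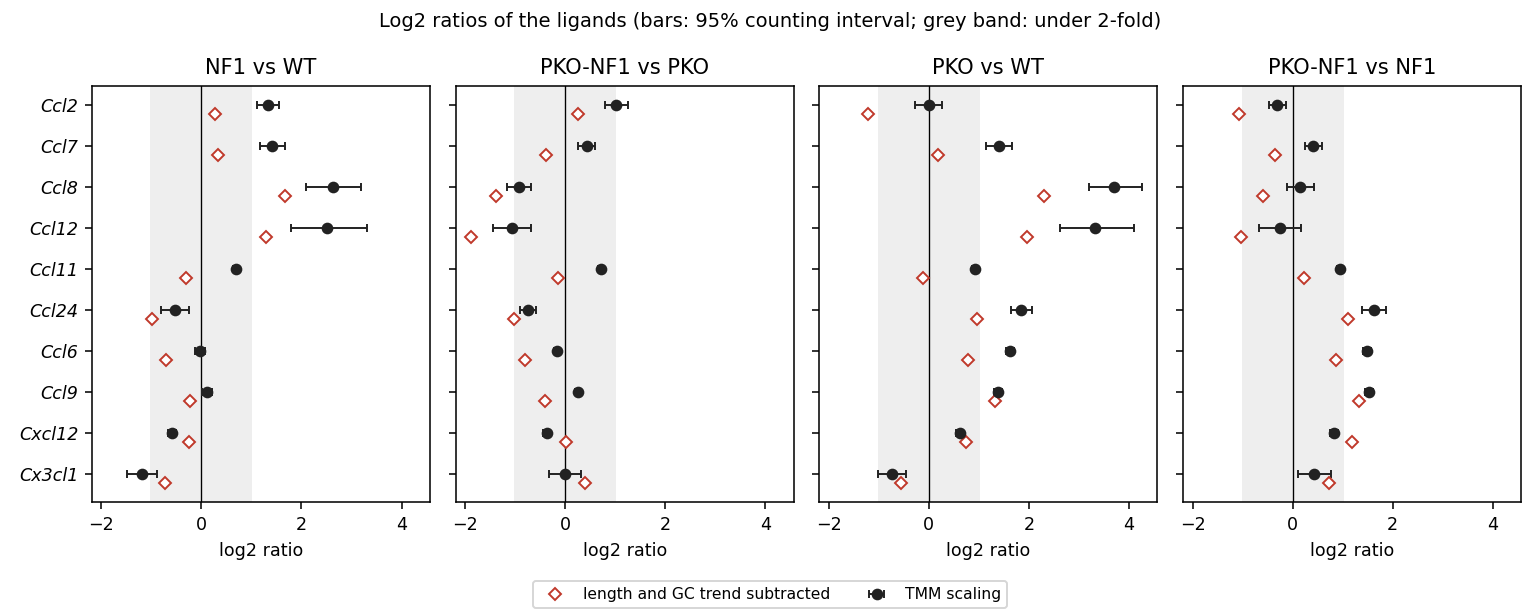
Log2 ratio of each ligand (x axis) in the 4 comparisons (panels); black points are TMM-scaled ratios with 95% counting intervals, red diamonds are trend-subtracted values, and the grey band marks ratios under 2-fold. Ccl8 and Ccl12 lie to the right in NF1 vs WT and PKO vs WT, at log2 ratios of 2.51 to 3.71, and the diamonds of the 5 shortest ligands lie to the left of their points.

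In the counts that follow, higher and lower mean a ratio of 2-fold or more whose interval left out 1. In NF1 vs WT, which asks what differs when the Dhh lineage loses Nf1, 4 ligands were higher (Ccl2, Ccl7, Ccl8 and Ccl12; 10.4% of all genes tested) and 1 lower (Cx3cl1; 6.31%). In PKO-NF1 vs PKO, the same question on the P2ry14-null background, 1 was higher (Ccl2; 5.2% of all genes) and 1 lower (Ccl12; 9.7%). In PKO vs WT, which asks what differs when P2ry14 is lost, 6 were higher (Ccl6, Ccl7, Ccl8, Ccl9, Ccl12 and Ccl24; 10%) and 0 lower (5.22%). In PKO-NF1 vs NF1, the loss of P2ry14 in Nf1 mutants, 3 were higher (Ccl6, Ccl9 and Ccl24; 7.9%) and 0 lower (13.8%). The ligands' median log2 ratios were 0.40, -0.08, 1.39 and 0.64 in this order, beside -0.0008, -0.005, -0.08 and -0.01 over all genes tested. NF1 vs WT and PKO vs WT share the WT library, and each library serves in 2 of the 4 comparisons.

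Trend-subtracted counts were smaller for higher ligands in 3 of the 4 comparisons. They were 2 higher (7.28% of all genes) and 0 lower (4.63%) in NF1 vs WT, where Ccl8 and Ccl12 remained. In PKO-NF1 vs PKO they were 0 higher (2.84%) and 3 lower (5.08%), namely Ccl8, Ccl12 and Ccl24. In PKO vs WT they were 3 higher (Ccl8, Ccl9 and Ccl12; 4.3%) and 1 lower (Ccl2; 5.96%), and in PKO-NF1 vs NF1 3 higher (Ccl9, Ccl24 and Cxcl12; 5.71%) and 2 lower (Ccl2 and Ccl12; 10.1%). The trend-subtracted median of the ligands was -0.24, -0.39, 0.76 and 0.48 in the same order of comparisons. In the plot against transcript length for PKO vs WT, Ccl9, Ccl24, Ccl6 and Cxcl12 lie above the line of all genes, Ccl11 close to it and Cx3cl1 below it. Ccl8, Ccl12, Ccl7 and Ccl2 are shorter than 946 bases, the median of the shortest decile, where the line begins. Beside that decile's median log2 ratio of 1.13, Ccl8 (3.71), Ccl12 (3.31) and Ccl7 (1.40) were higher and Ccl2 (-0.0035) lower.

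**Figure D3:**
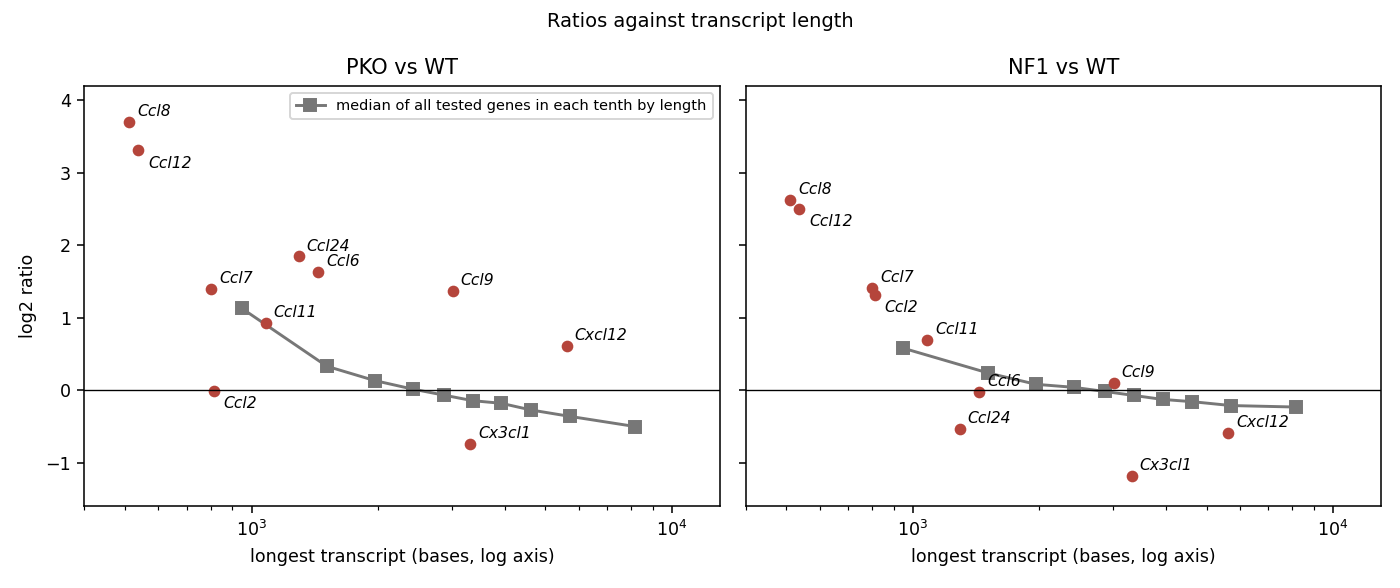
Log2 ratio (y axis) against the length of the longest transcript in bases (x axis, log scale) for PKO vs WT (left) and NF1 vs WT (right); red points are the ligands, and grey squares the median of all tested genes in each length decile. The grey line falls from 1.13 in the shortest decile to -0.50 in the longest in PKO vs WT, and from 0.58 to -0.23 in NF1 vs WT.

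Both P2ry14-null libraries were above both others, without overlap, for 6 ligands (Ccl6, Ccl8, Ccl9, Ccl11, Ccl24 and Cxcl12), a pattern found in 23.4% of all genes tested. These patterns were counted with TMM scaling only. Trend-subtracted, the log2 ratio of Ccl11 was -0.11 in PKO vs WT and 0.22 in PKO-NF1 vs NF1. For Ccl8 the margin between PKO-NF1 and NF1 was within counting error (1.11, interval 0.920 to 1.34), and it was -0.59 on the log2 scale when trend-subtracted. The opposite pattern, both P2ry14-null libraries below both others, was found for 0 ligands and 24.4% of genes. Both Nf1-mutant libraries were above both others for Ccl2 and Ccl7 (2 ligands; 19.8% of genes) and below both others for 1, Cx3cl1 (20.5%), where the margin between PKO and PKO-NF1 was within counting error. The margin of Ccl7 between NF1 and PKO was also within counting error (1.01, 0.893 to 1.14). At 2-fold or more in both P2ry14 comparisons, 3 ligands were higher, Ccl6, Ccl9 and Ccl24 (2.97% of genes), and 0 lower (2.85%). In both Nf1 comparisons 1 was higher, Ccl2 (1.29%), and 0 lower (2.6%).

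The Nf1 ratio was close to equal on both P2ry14 backgrounds for some ligands and of opposite direction for others. The log2 ratio in PKO-NF1 vs PKO minus that in NF1 vs WT was 0.02 for Ccl11 (counting interval -0.06 to 0.09), -0.30 for Ccl2 (-0.61 to 0.01) and -0.22 for Ccl24 (-0.54 to 0.09), and each of these intervals included 0. It was -0.99 for Ccl7 (-1.29 to -0.69), and -3.55 for Ccl8 (-4.13 to -2.98) and -3.57 for Ccl12 (-4.38 to -2.76), which were higher with the Nf1 mutation where P2ry14 was intact and lower with it on the P2ry14-null background. With the trend subtracted, the differences for Ccl8 and Ccl12 were -3.06 and -3.16. Cx3cl1 had a difference of 1.18 (0.76 to 1.60). With 1 library in each cell of the design these differences have no replicate error.

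**Figure D4:**
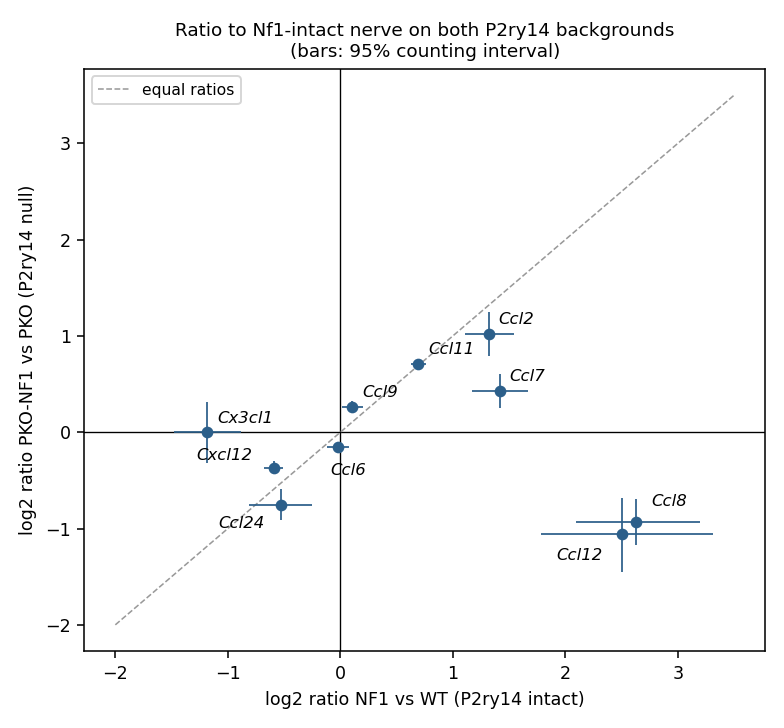
Log2 ratio of each ligand in PKO-NF1 vs PKO (y axis, P2ry14 null) against that in NF1 vs WT (x axis, P2ry14 intact), with 95% counting intervals; the dashed line marks equal ratios. Ccl11 lies on the line, Ccl2 and Ccl24 near it, and Ccl8 and Ccl12 in the lower right, at log2 ratios of 2.63 and 2.51 on the x axis and -0.93 and -1.06 on the y axis.

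Both genotypes were also entered together, without interaction, into an edgeR quasi-likelihood fit of 14105 genes. Its 1 residual degree of freedom is the departure from additivity, so that it sets a term against that departure and not against a spread between animals. The fitted Nf1 change of Ccl2 was 1.17 on the log2 scale (SE 0.22), with an edgeR adjusted p of 0.168. At the P2ry14 term Ccl24 had a log2 change of 1.74 (SE 0.22), Ccl6 of 1.56 (SE 0.28) and Ccl9 of 1.45 (SE 0.28), each with an edgeR adjusted p of 0.142. For Ccl8 and Ccl12 the SE was 0.90 and 0.91, the widest among the ligands at either term. At edgeR adjusted p under 0.05, 0 ligands were called at the Nf1 term (0% of genes) and 0 at the P2ry14 term (0.0496%). Without a filter on low counts the edgeR fit called 1 ligand at the P2ry14 term, Ccl24, with an edgeR adjusted p of 0.0385. At unadjusted p under 0.05 there were 3 at the Nf1 term (20.9% of genes) and 6 at the P2ry14 term (25.2%). The DESeq2 Wald test called 0 at the Nf1 term (2.01% of genes) and 3 at the P2ry14 term (5.1%): Ccl6, Ccl9 and Ccl24, with DESeq2 adjusted p of 0.00106, 0.00261 and 0.00125. Over all settings of the model the adjusted p ranged up to 0.348 for each of the 3, by edgeR with the P2ry14 term alone.

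Receptors for these ligands were examined next, from a list of 19 chemokine receptors and 6 atypical receptors, which bind chemokines without classical signalling. Of the 19 receptors 9 reached 1 CPM in some library. In NF1 vs WT 4 were higher (10.4% of all genes tested) and 0 lower (6.31%). In PKO-NF1 vs PKO 3 were higher (5.2%) and 0 lower (9.7%). The median log2 ratios of these comparisons were 0.93 and 0.97. In PKO vs WT 2 were higher (10% of all genes) and 1 lower (5.22%), with a median of 0.37. The 2 higher were Ccr3 and Cxcr6, which were also among the 4 higher in NF1 vs WT. Ccr3 (0.12 CPM in WT) passed the filter of 1 CPM through NF1 alone, at 1.37 CPM. Cxcr6 (0.41 CPM in WT) passed only through libraries other than WT. The filter thus had a part in their being counted as higher than WT. In PKO-NF1 vs NF1 1 was higher (7.9%) and 1 lower (13.8%), with a median of 0.20. Trend-subtracted, the receptors higher and lower were 2 and 0 in NF1 vs WT, and 2 and 1 in each of PKO-NF1 vs PKO and PKO vs WT. The trend-subtracted medians were 0.77 in NF1 vs WT, 0.41 in PKO-NF1 vs PKO, 0.0044 in PKO vs WT and 0.24 in PKO-NF1 vs NF1. The receptors' summed level was 104 CPM in WT and 89.8 in PKO, and 197 in NF1 and 223 in PKO-NF1.

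Ccr2, the monocyte receptor of Ccl2, Ccl7 and Ccl12, was at 44.7 (WT), 40.9 (PKO), 77.4 (NF1) and 106 CPM (PKO-NF1). As with Ccl2, both Nf1-mutant libraries were above both others. Ccr2 was 1.73-fold above WT in NF1 (1.59 to 1.89) and 2.59-fold above PKO in PKO-NF1 (2.38 to 2.83). Ccr1, a receptor of Ccl6, Ccl7 and Ccl9, was at 9.38 (WT), 13.3 (PKO), 25.7 (NF1) and 21.2 CPM (PKO-NF1). Its highest library was NF1, whereas Ccl6 and Ccl9 were highest in the P2ry14-null libraries.

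Cx3cr1, the receptor of Cx3cl1 on resident macrophages and monocytes, was at 31.6 (WT), 14.2 (PKO), 71.6 (NF1) and 56.7 CPM (PKO-NF1). The ligand and the receptor differed in opposite directions in NF1 vs WT, where Cx3cr1 was 2.26-fold higher (2.05 to 2.51). In PKO vs WT both were lower, Cx3cr1 by 2.22-fold (1.91 to 2.59) and Cx3cl1 by 1.67-fold (1.38 to 2.03). Cx3cr1 was 3.99-fold above PKO in PKO-NF1 (3.47 to 4.60), a comparison in which Cx3cl1 did not differ beyond counting error. Cxcr4, the signalling receptor of Cxcl12, was at 8.85 (WT), 11.5 (PKO), 6.34 (NF1) and 22.5 CPM (PKO-NF1), and was 3.55-fold above NF1 in PKO-NF1 (2.89 to 4.38). Ackr3, which scavenges Cxcl12, was the most abundant receptor in CPM in every library, at 119 (WT), 135 (PKO), 90.7 (NF1) and 157 CPM (PKO-NF1). Like Cxcl12 it was lowest in NF1.

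Eosinophil and type 2 receptors were near the counting limit although their ligands were not. Ccr3, the receptor of Ccl11 and Ccl24, had 2 (WT), 15 (PKO), 27 (NF1) and 10 counts (PKO-NF1), a ratio of 11.6 in NF1 vs WT with an interval of 2.92 to 101. Ccr8, named here after its values were seen, had 0 counts in WT and PKO-NF1 and 1 in PKO and NF1. Among other measured receptors Cxcr6 was at 0.41 to 1.83 CPM, Cxcr3 at 0.96 to 1.41 CPM and the dendritic cell receptor Xcr1 at 1.07 to 2.44 CPM. All 6 atypical receptors were measured. Ackr1, the endothelial transporter of inflammatory chemokines, was at 35.0 (WT), 33.1 (PKO), 12.9 (NF1) and 12.3 CPM (PKO-NF1). It was thus lower in both Nf1 mutants, by 2.70-fold (2.33 to 3.14) and 2.68-fold (2.28 to 3.16). Ackr2, a scavenger of inflammatory CC chemokines, was at 6.73, 13.0, 4.31 and 5.37 CPM in WT, PKO, NF1 and PKO-NF1. Gpr182, an endothelial scavenger, was lowest in NF1, at 2.08 CPM against 5.66 to 8.72 CPM in the other libraries. Ackr4 was at 2.81 to 4.10 CPM and Ccrl2 at 2.83 to 5.13 CPM.

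**Figure D5:**
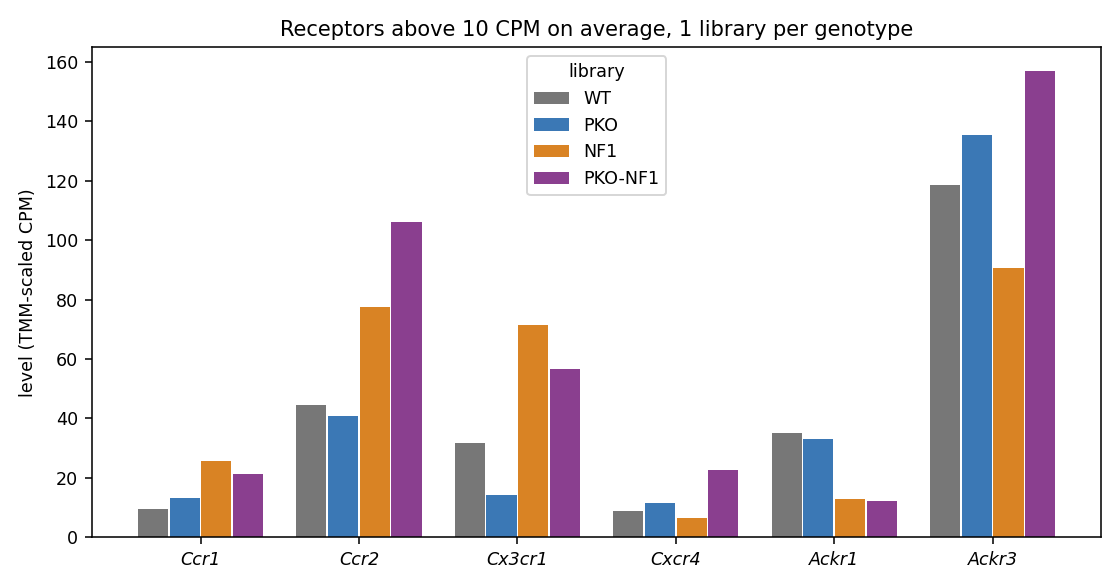
Level in TMM-scaled CPM (y axis, from 0) of the 4 chemokine receptors and 2 atypical receptors with a mean above 10 CPM (x axis), each bar a single library. Ccr2 and Cx3cr1 are higher in NF1 and PKO-NF1 than in WT and PKO, and Ackr1 is lower.

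Of 30 other chemokine ligands 16 were measured, and with TMM scaling more were higher than lower in both P2ry14 comparisons. In PKO vs WT 7 were higher (10% of all genes tested) and 0 lower (5.22%), and in PKO-NF1 vs NF1 6 were higher (7.9%) and 1 lower (13.8%). In NF1 vs WT 2 were higher (10.4%) and 1 lower (6.31%), and in PKO-NF1 vs PKO 3 were higher (5.2%) and 0 lower (9.7%). Trend-subtracted, the PKO vs WT counts were 2 higher and 4 lower, with a median log2 ratio of 0.30 in place of 0.93. Those of PKO-NF1 vs NF1 were 5 higher and 2 lower, with a median of 0.02 in place of 0.61. Pf4, a CXC ligand of platelets and resident macrophages, had a profile like those of Ccl6 and Ccl9, at 44.2 (WT), 153 (PKO), 47.6 (NF1) and 130 CPM (PKO-NF1). Its transcript of 588 bases belongs to the shortest decile, and these levels are not trend-subtracted. Cxcl14, made by stromal cells, was lowest in PKO, at 40.5 CPM against 60.3 in WT, 84.8 in NF1 and 79.5 in PKO-NF1. Cxcl16, the transmembrane ligand of Cxcr6, was at 19.2, 32.2, 27.9 and 44.0 CPM in WT, PKO, NF1 and PKO-NF1. The B cell chemokine Cxcl13 was at 12.7 to 26.3 CPM, the interferon-induced T cell chemokine Cxcl9 at 2.84 to 11.7 CPM and Ccl27a at 12.1 to 28.5 CPM; Ccl27a has near-identical copies in the mouse genome, so its count is uncertain.

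Marker lists of the cells that make or receive chemokines differed between the same libraries. Macrophage genes, 15 in the table and none at 0 in any library, summed to 1854 CPM in WT, 2024 in NF1, 2815 in PKO and 3965 in PKO-NF1. Their most abundant members were Lyz2, C1qa and C1qb, and 3 were higher and 1 lower in PKO vs WT (median log2 ratio 0.47, trend-subtracted 0.04) and 4 higher and 0 lower in PKO-NF1 vs NF1 (0.89 and 0.59). Mast cell genes, 10 with none at 0, summed to 437 CPM in WT, 426 in NF1, 1144 in PKO and 1034 in PKO-NF1, and 6 of 10 were higher in each P2ry14 comparison, or 2 of 10 when trend-subtracted. Their most abundant members were Mcpt4, Cma1 and Tpsb2. Adipocyte genes, 13 with none at 0, summed to 12202 CPM in WT, 9005 in NF1, 28050 in PKO and 20769 in PKO-NF1, led by Cfd, Scd1 and Fabp4. In PKO vs WT 5 of the 13 were higher and 0 lower, or 2 and 0 when trend-subtracted. Plin1, Plin4 and Lep were not above WT in PKO, at ratios of 0.96, 0.80 and 0.79. In PKO-NF1 vs NF1 9 were higher and 0 lower, or 7 and 0 when trend-subtracted. The nerve fibroblast list, 12 genes with none at 0, summed to 16677 CPM in WT, 20062 in NF1, 26864 in PKO and 35960 in PKO-NF1, led by Apod, Dcn and Col3a1. Of the 12, 2 were higher and 0 lower in PKO vs WT, or 1 and 0 when trend-subtracted. In PKO-NF1 vs NF1 3 were higher and 0 lower under either setting. Endothelial genes summed to 945, 371, 1137 and 651 CPM in WT, NF1, PKO and PKO-NF1, led by Pecam1, Egfl7 and Vwf, with none of 15 at 0. T and NK cell genes, led by Gzma, Cd3g and Klrb1c, summed to 4.07 CPM in WT, 5.79 in NF1, 9.45 in PKO and 12.5 in PKO-NF1, with 2 of 10 at 0 in WT. As with Ccl6, Ccl9 and Ccl24, both P2ry14-null libraries were above both others in the macrophage, mast cell and adipocyte sums. The same held for the nerve fibroblast, T and NK cell, pericyte and smooth muscle, and neutrophil and dendritic cell sums. A sum is weighted to its most abundant genes. Of 10 pericyte and smooth muscle genes, 2 were higher and 0 lower in PKO vs WT. In PKO-NF1 vs NF1 1 of them was higher and 2 lower, with a median log2 ratio of -0.16. Of 10 neutrophil and dendritic cell genes, 1 was higher and 1 lower in PKO vs WT, with a median of 0.13. In PKO-NF1 vs NF1 5 of these were higher and 1 lower, with a median of 0.77. The neutrophil and dendritic cell sum was 60.7 CPM in WT, 67.4 in NF1, 67.9 in PKO and 120 in PKO-NF1. Of 5 measured T and NK cell genes 4 were higher in each P2ry14 comparison, or 0 when trend-subtracted. Among the 5, Cd3d, Cd3g and Nkg7 were at only 0.24 to 0.66 CPM in WT and NF1. They passed the filter of 1 CPM only through P2ry14-null libraries, so the filter largely fixed their being higher there. Over all genes tested, 10% were higher and 5.22% lower in PKO vs WT, and 7.9% higher and 13.8% lower in PKO-NF1 vs NF1. Cxcl12 had the same order of libraries as the mast cell, adipocyte, and pericyte and smooth muscle sums. The last sum was 935 CPM in WT, 850 in NF1, 1292 in PKO and 1097 in PKO-NF1, led by Tagln, Mcam and Cspg4. Ccl11 had the same order of libraries as Lyz2 and as the macrophage, nerve fibroblast, T and NK cell, and neutrophil and dendritic cell sums. Beside the Nf1 ratios of the ligands, the myelinating Schwann cell sum was 25558 CPM in WT and 8898 in NF1, with 10 of 13 genes lower (6.31% of all genes). The same sum was 35597 CPM in PKO and 19782 in PKO-NF1, with 7 of 13 lower (9.7%) and 1 higher (5.2%). The part of these cells in the ligand ratios was not tested.

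The genes with the profile most like that of a ligand over the 4 libraries were found among 11307 genes at 5 CPM or more on average, by root mean square difference of centred log2 levels. For Ccl11, the CC ligand with the highest CPM, they were Apod, the lipocalin of nerve fibroblasts (0.06), Tceal8 (0.06), Plbd1 (0.07) and Lyz2, lysozyme of macrophages (0.07). Apod was at 6053 (WT), 11041 (PKO), 10463 (NF1) and 18717 CPM (PKO-NF1). Those of Cxcl12 were Mmp23 (0.03), Smim1 (0.04), the heparanase Hpse (0.04) and the galactokinase Galk1 (0.04), and those of Cx3cl1 were Prr7 (0.02), Rapgef5 (0.03), Tppp (0.05) and Lrp11 (0.05). With 4 libraries these are descriptions of shape over few points.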

How the data were processed

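The deposited table gives read counts by gene symbol, a column for each library, and every column was used. Per the submitters' processing notes, the build was mm10 and the tools included featureCounts 1.5.2, HISAT2 2.0.5 and FastQC 0.11.7. The annotation, the strand setting and the treatment of multiply mapping reads were not given in the sources used here. Per the labels' protocols, Trizol was used for extraction and a TruSeq RNA kit for the libraries. Ccl2 and Ccl6 overlap a gene on the opposite strand. Of the ligands, Ccl9 alone shared any 50-base stretch of its longest transcript with another gene (2.0% of stretches).

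Counts were scaled with edgeR 4.0.16 TMM factors (0.873 to 1.20). Ratios carry exact conditional (Clopper-Pearson) 95% intervals, which cover counting error only, since PCR copies of a molecule cannot be recognised; genes at 1 CPM in at least 1 library were kept. Intervals for differences between log2 ratios are normal approximations from the counts. The additive model kept genes at 1 CPM in at least 2 libraries, with Benjamini-Hochberg adjustment. The trend was fitted per comparison with natural splines (4 degrees of freedom each) in log10 longest-transcript length and GC content, and centred on its median. Length, GC and coordinates came from GENCODE M21, to which 98.3% of symbols matched. Promoter windows came from RefSeq (GRCm38.p6), and 6 of 10 ligands matched. Scripts were tested on simulated counts with Nf1 changes equal on both P2ry14 backgrounds and no length trend. Those tests did not cover departures from additivity or the trend.

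The ligands, the 18 gene lists, the tests and the alternatives were chosen with earlier results of these data known. Genes were named by a rule: all ligands, all measured receptors (1 is not reported here), the 6 most abundant other ligands, the 3 most abundant genes of a marker list set beside a ligand, and the 4 genes most alike in profile (log2 of CPM plus 0.5) to the most abundant ligand of each subfamily. Alternatives were DESeq2 1.42.0 size factors, total counts, removal of skeletal muscle genes, the trend, expression filters and a 1.5-fold threshold, and for the model the DESeq2 Wald test, no filter and 1 genotype term.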

Additional observations from a re-analysis of the deposited data

Results flagged for a closer look

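Ccl8 and Ccl12 were higher with the Nf1 mutation where P2ry14 was intact and lower with it on the P2RY14-/- background, in each case beyond counting error. The log2 ratio in PKO-NF1 vs PKO minus that in NF1 vs WT was -3.55 for Ccl8 and -3.57 for Ccl12. Cx3cl1 was lower in the P2RY14-/- library where Nf1 was intact and higher in it among the Nf1 mutants, with a difference of log2 ratios of 1.18. With 1 library per genotype none of these differences was tested.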

How the results depend on the processing

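The counts of ligands past 2-fold were the same with DESeq2 size factors, without skeletal muscle genes, with no expression filter and with a 5 CPM filter. With the length and GC trend subtracted, higher and lower counts were 3 and 1 in PKO vs WT, 2 and 0 in NF1 vs WT, and 0 and 3 for PKO-NF1 vs PKO, while 2 were lower for PKO-NF1 vs NF1. Total counts alone gave 0 lower in PKO-NF1 vs PKO, and 4 higher (without Ccl7 and Ccl9) and 1 lower in PKO vs WT, and moved the median log2 ratio of all genes to -0.22 in NF1 vs WT, -0.54 in PKO vs WT and -0.17 in PKO-NF1 vs NF1. Total counts also moved the share of higher genes among all calls from 62.3% to 41.2%, from 65.7% to 21.9% and from 36.4% to 22.6% in those comparisons, and the trend moved that of PKO vs WT to 41.9%. At 1.5-fold, 5 were higher and 2 lower in NF1 vs WT, 2 higher and 3 lower in PKO-NF1 vs PKO, 8 higher and 1 lower in PKO vs WT and 5 higher in PKO-NF1 vs NF1, as a lower threshold admits more genes. No ligand ratio past 2-fold changed sign under an alternative scaling. The additive model, edgeR, called 0 genes at the Nf1 term and 7 at the P2ry14 term; without a filter these were 46 and 108, with the DESeq2 Wald test 284 and 720, and with the P2ry14 term alone 0. The cause of these shifts was not tested. No paired analysis was possible because each genotype has 1 library. No library could be left out of a comparison, and without any of the 4 the additive model has no residual degree of freedom. Depth limits Ccl8 and Ccl12 in WT, at 33 and 18 counts.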

Other observations

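Proteases that process chemokines and cytokines that induce them were measured beside the ligands. Mmp9, the gelatinase B of neutrophils and macrophages, was at 23.3 (WT), 71.3 (PKO), 10.7 (NF1) and 32.6 CPM (PKO-NF1), with both P2ry14-null libraries above both others. Adam10, the constitutive sheddase of Cx3cl1, was highest in WT, at 362 (WT), 297 (PKO), 222 (NF1) and 275 CPM (PKO-NF1). Dpp4, which trims Cxcl12 and Ccl11, was at 47.1 to 69.5 CPM. Of 13 inducing cytokines 5 were measured, and Il33, an alarmin of stromal cells, was the most abundant in CPM, at 137 (WT), 167 (PKO), 179 (NF1) and 258 CPM (PKO-NF1). Tnf had 22 counts or fewer in every library.

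Ppbp, a platelet chemokine chosen after its values were seen, had 20 (WT), 10 (PKO), 5 (NF1) and 135 counts (PKO-NF1).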
